A study of Arabidopsis thaliana with 16 samples.

Results

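AT5G62360, a gene of the pectin methylesterase inhibitor family, and AT3G48950, a gene of the pectin lyase-like family, were followed over 6 groups of Arabidopsis thaliana seedling shoots. They are 2 of 13286 loci that the probe annotation names through a single gene, and 2 of the 9379 loci with a probe set that passed the filter on dim signals. Each is read by 1 probe set of the Affymetrix ATH1 array, and both probe sets passed that filter, AT3G48950 through the group where it is high: over the other 14 arrays its mean log2 signal of 4.91 is under the filter's 5.34. The pair was picked because the 2 genes responded to dexamethasone (DEX) in opposite directions on these same arrays: AT5G62360 was lower with DEX in both lines, and AT3G48950 was much higher with DEX in the line without the rga-delta17 transgene. The DEX effects of both genes, their differences between the times, and the comparison of the lines without DEX, are therefore given as descriptions with no test.

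Pectin is the gel-like polysaccharide of the primary cell wall. Its main backbone, homogalacturonan, is secreted with methyl esters on its galacturonic acid units. Pectin methylesterases remove these esters in the wall, and proteinaceous pectin methylesterase inhibitors bind and block those enzymes, so the balance of the enzyme and its inhibitor sets where demethylesterified stretches form. Such stretches can be cross-linked by calcium, which stiffens the wall, or cut by polygalacturonases and pectate lyases, which loosens it. The pectin lyase-like fold is the beta-helix that polygalacturonases, pectate lyases and related wall proteins share. Gibberellins promote growth by triggering the breakdown of DELLA proteins, which are nuclear repressors of gibberellin responses.

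The study was set up to find early responders to an induced DELLA protein. The 12 arrays of the rga line came from a transgenic line, ecotype Ler, in which DEX induces rga-delta17, a dominant DELLA form that does not respond to gibberellin. Mock and DEX shoots of this line were taken at 2 h and at 4 h, with 3 biological replicates each. The 4 arrays of the vector line came from plants with the same vector but no rga-delta17 transgene, with 2 biological replicates each of mock and DEX, at 4 h only. All seedlings, the mock groups included, were 8 days old, grew in continuous light, had received a spray of the gibberellin GA4 at 2 µM 16 h beforehand, and were sprayed again with 2 µM GA4 alone (mock) or together with 10 µM DEX. Shoots were cut off and extracted whole, so the arrays cannot tell fewer cells of a type from less RNA per cell. The labels do not say how many independent transformants each line stands for.

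The 2 DEX arrays of the vector line stood apart from the other 14 arrays. They correlated with the others at r of 0.789 to 0.884, whereas those 14 correlated with each other at 0.916 to 0.975, and their control probe set for 25S ribosomal RNA read 12528 and 13088, against 391 to 2046 in the rga line and 422 and 526 in the vector mock group. Of 15 leaf markers, RCA and LHCB4.1 could be tested, and their summed signal was 30123 and 30538 on these arrays and 29565 to 38975 on the rest. Of 12 root markers, EXPA7 and EXPA18 could be tested; their summed signal was 168 to 343 on rga arrays, 75.0 and 127 in the vector mock group and 116 and 179 in the vector DEX group. No marker was at the floor on every array. The part of these differences in the values of the vector line below was not tested; the log2 changes of the rga line do not use those arrays, although their standard errors share 1 estimate of the spread with them.

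AT5G62360 lies on chromosome 5 and belongs, by its family, to the inhibitors of pectin methylesterase. The signal, a linear MAS5 intensity scaled by the authors to the same target on every array, was 885, 1311 and 901 in the rga line at 2 h with mock treatment. With DEX at 2 h it was 404, 445 and 419. Every DEX array was below every mock array at this time. At 4 h the mock arrays of the rga line read 1007, 616 and 575, and the DEX arrays read 306, 460 and 298. These groups did not overlap either, although the highest DEX array came nearer to the lowest mock array than at 2 h. The 2 mock arrays of the vector line read 543 and 536, and its 2 DEX arrays read 18.8 and 17.7. The vector DEX arrays were far below all other 14 arrays, which spanned 298 to 1311.

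The log2 change of AT5G62360 with DEX, from 1 limma model over all 16 arrays, was -1.27 ± 0.20 (SE) at 2 h in the rga line, a 2.40-fold lower level (3 against 3 arrays). At 4 h it was -1.03 ± 0.20, or 2.04-fold lower (3 against 3 arrays). For the vector line it was -4.88 ± 0.25, or 29.5-fold lower (2 against 2 arrays). The DEX effect at 4 h was therefore smaller in the rga line than in the vector line by 3.85 ± 0.32 on the log2 scale. Of the 17059 probe sets tested, 13 had a log2 change further below 0 in the vector line, 73 in the rga line at 2 h and 125 at 4 h. Groups that did not overlap, with DEX lower, made up 9.06% of probe sets at 2 h and 10.4% at 4 h for the rga line and 46.3% for the vector line, so that separation alone was common in the vector line. Because the pair was picked on these differences, nothing is read from them beyond their size.

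**Figure D1:**
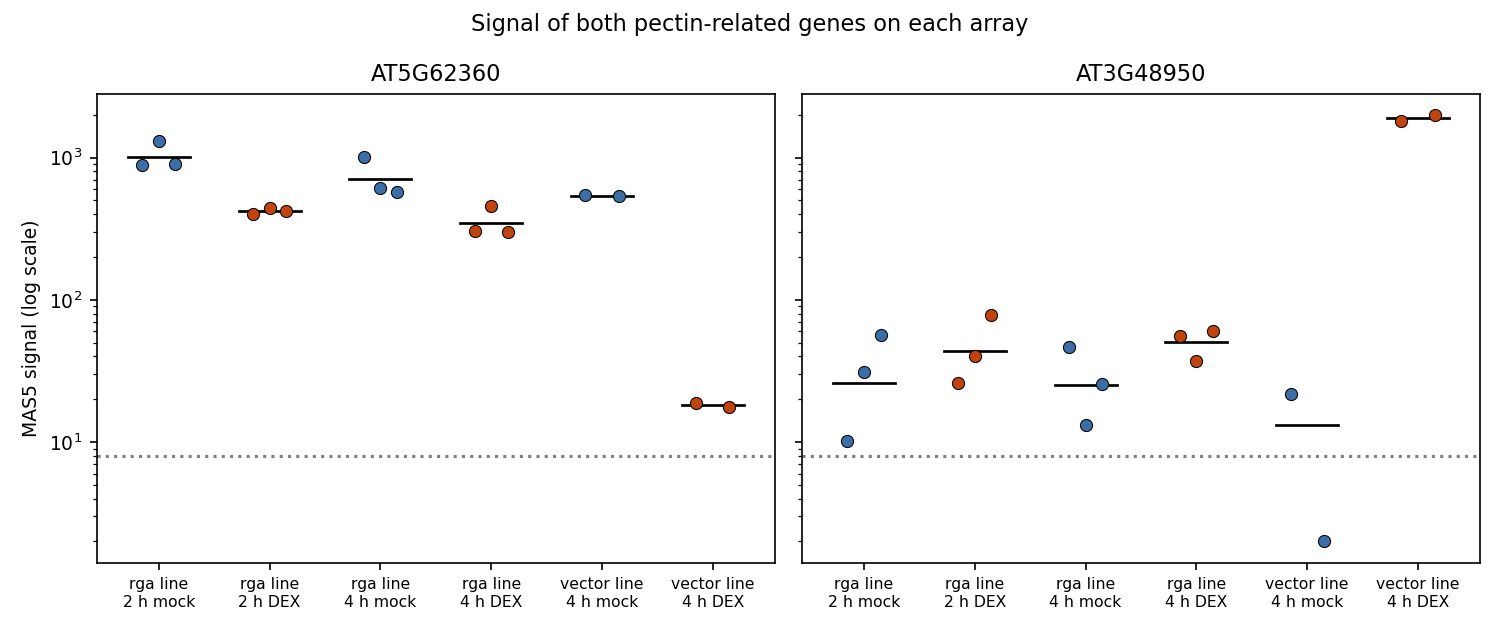
MAS5 signal on a log axis for AT5G62360 and AT3G48950 in the 6 groups; each point is 1 array (3 per group in the rga line, 2 in the vector line), horizontal bars are means of the log2 signals after the floor, and the dotted line is the floor of 7.95. AT5G62360 was 18.8 and 17.7 with DEX in the vector line and 298 or more elsewhere, and AT3G48950 was 1806 and 2001 there and 78.6 or less elsewhere.

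Ordered by mean log2 signal, AT5G62360 was highest in the rga line at 2 h with mock treatment (mean signal 1032 ± 242, SD, n = 3), and the rga 4 h mock group followed (732 ± 238, n = 3). The arrays of these groups overlapped. The vector mock group came next (540 ± 4.40, n = 2). The rga DEX groups were lower, at 423 ± 20.9 (n = 3) at 2 h and 355 ± 91.3 (n = 3) at 4 h, and overlapped with each other. The vector DEX group was last, at 18.3 ± 0.783 (n = 2). On the rga arrays the probe set ranked above 61.2% to 88.7% of all probe sets of its array, and on the vector DEX arrays above 20.0% and 20.5%.

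AT3G48950 lies on chromosome 3; its family includes enzymes that cleave the pectin backbone. Its signal was low on 14 of the 16 arrays. In the rga line at 2 h it was 10.2, 31.1 and 56.4 with mock treatment and 26.0, 40.5 and 78.6 with DEX. At 4 h it was 46.3, 13.1 and 25.8 with mock treatment and 56.1, 37.3 and 60.4 with DEX. The DEX and mock arrays of the rga line overlapped at both times, and replicates of 1 group differed by as much as the groups did. In the vector line the mock arrays read 21.9 and 2.00, the second of which was below the floor of 7.95, the 10th percentile of all deposited values, to which lower values were set. With DEX the vector arrays read 1806 and 2001. Only these 2 arrays were above 78.6.

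The log2 change of AT3G48950 with DEX was 0.74 ± 0.62 at 2 h and 1.003 ± 0.62 at 4 h in the rga line (3 against 3 arrays each). These are given with no test, and the DEX and mock arrays overlapped at both times. Without 1 array the first lay between 0.06, without rga 2 h mock replicate 1, and 1.29, without rga 2 h mock replicate 3, and the second between 0.54, without rga 4 h mock replicate 2, and 1.45, without rga 4 h mock replicate 1. In the vector line it was 7.17 ± 0.76 (2 against 2 arrays), a ratio of 144 that depends on the floor, since 1 of 2 mock arrays was set to it. Leaving out 1 array at a time moved that change between 6.44 and 7.90. The rga effect at 4 h minus the vector effect was -6.17 ± 0.99 on the log2 scale. Only 4 probe sets had a larger rise in the vector line. Groups with no overlap and DEX higher made up 30.0% of probe sets in the vector line, against 9.43% at 2 h and 10.1% at 4 h in the rga line.

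In order of mean log2 signal, AT3G48950 ran from the vector DEX group (1904 ± 138, n = 2) to rga 4 h DEX (51.2 ± 12.3, n = 3), rga 2 h DEX (48.4 ± 27.2, n = 3), rga 2 h mock (32.6 ± 23.1, n = 3), rga 4 h mock (28.4 ± 16.7, n = 3) and vector mock (11.9 ± 14.1, n = 2). Below the first place every pair of neighbours overlapped. The probe set ranked above 12.1% to 33.0% of all probe sets of its array in the rga line and above 91.3% and 92.0% in the vector DEX group. No detection call is given in the sources used here, so a low signal is a low value and not a call of absence.

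Without DEX, AT5G62360 was 0.39 ± 0.23 higher on the log2 scale in the rga line than in the vector line at 4 h (3 against 2 arrays). AT3G48950 was 0.92 ± 0.70 higher, with overlapping arrays. The median of all probe sets was 0.10 higher. Both comparisons use the vector mock arrays that entered the choice of the pair.

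Time in the rga line was not what the pair was picked on, but the same arrays entered that choice. The differences between the times are therefore given with no test for both genes. Adjusted p-values given below for other genes are limma's with Benjamini-Hochberg adjustment over all 17059 probe sets, called below 0.05. Under mock treatment AT5G62360 had a log2 difference of -0.52 ± 0.20 at 4 h against 2 h, with overlapping arrays. With DEX the difference between the times was -0.28 ± 0.20, again with overlap. For AT3G48950 the rga signals are also too dim to pass the filter on their own. Its differences between the times were -0.06 ± 0.62 under mock treatment and 0.20 ± 0.62 with DEX. The DEX effect at 4 h minus that at 2 h was 0.24 ± 0.29 for AT5G62360 and 0.27 ± 0.88 for AT3G48950, again with no test. Across all probe sets 1.54% were called between the times under mock treatment (0.399% higher and 1.14% lower at 4 h), 4.15% with DEX (1.95% higher and 2.20% lower) and 0.0469% for the change of the DEX effect over time (0.0293% higher and 0.0176% lower).

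The other genes of pectin modification gave the setting for the pair. The 7 lists held 211 loci besides the pair, of which 119 had a named probe set and 78 were tested. At 2 h in the rga line 3 of the 78 (3.85%) rose with DEX and 0 fell, against 4.14% of all probe sets called (3.02% higher and 1.12% lower). An unadjusted limma p under 0.05 was reached by 9 of the 78, against 14.3% of all probe sets. The median log2 change of the 78 was -0.02, beside -0.01 for all probe sets. At 4 h 5 rose and 4 fell (11.5%), against 5.16% of all probe sets (3.61% higher and 1.55% lower), with a median of -0.10 beside -0.02. There 26 of the 78 had an unadjusted limma p under 0.05, against 16.2% of all probe sets. The vector line had 15 that rose and 34 that fell (62.8%), against 47.3% of all probe sets (17.7% higher and 29.6% lower), with a median of -0.51 beside -0.15. That median was -0.25 after quantile normalization and -0.24 after centring each array on its median, where 21 rose and 28 fell.

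Among the inhibitors of pectin methylesterase, the family of AT5G62360, 15 genes were tested. In the rga line 1 was called at 2 h (6.67%) and 3 at 4 h (20.0%), against 4.14% and 5.16% of all probe sets. AT1G14890 rose with DEX in the rga line, from a mean signal of 414 ± 72.2 to 735 ± 89.6 at 2 h (log2 change 0.84 ± 0.17, adjusted p = 0.00745) and from 408 ± 41.5 to 864 ± 110 at 4 h (1.08 ± 0.17, adjusted p = 0.000664; n = 3 per group, limma). The 2 h call was lost without rga 2 h mock replicate 1 (log2 change 0.69, adjusted p = 0.0547). AT3G62820 and AT4G25260, also known as PMEI7, fell at 4 h in the rga line, by 0.84 and 0.61 on the log2 scale, and the adjusted p of AT4G25260 rose past 0.05 on leaving out any 1 of 4 of the 6 arrays. Of the 15 inhibitors 2 rose and 7 fell in the vector line. The mean signal of AT4G25260 went from 485 ± 13.6 to 108 ± 36.2 (n = 2 per group), and that of AT3G62820 from 483 ± 26.5 to 151 ± 17.9. AT1G62770 fell by 1.99 and AT3G17130 rose by 0.92. AT4G25260 and AT3G62820 thus fell in both lines at 4 h, where AT5G62360 was lower too, while neither was called at 2 h.

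The gene next to AT5G62360 on the chromosome, AT5G62350, is a family member too. Its log2 change with DEX was -0.15 at 2 h and -0.18 at 4 h in the rga line, with no call (adjusted p = 0.525 and 0.389, limma), and it rose by 0.35 ± 0.12 in the vector line (adjusted p = 0.0214). That call was lost without vector mock replicate 1 (adjusted p = 0.143) or vector DEX replicate 2 (adjusted p = 0.184). AT5G62340, the gene beyond it, which was not in the pectin lists, rose by 1.17 ± 0.45 there (adjusted p = 0.0401). Near AT3G48950, its neighbour AT3G48940 rose by 3.40 ± 0.59 in the vector line (adjusted p = 0.000117), AT3G48970, which lies beyond AT3G48960, fell by 2.41, and AT3G48960 was not called (adjusted p = 0.758). None of these 3 was called in the rga line at 2 h or 4 h. In the vector line 47.3% of all probe sets were called (17.7% higher and 29.6% lower), so a called neighbour was common there. The calls of AT5G62340 and of the genes near AT3G48950 were not recomputed with arrays left out. Gene order was read from the RefSeq annotation of TAIR10.1.

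Pectin methylesterases, the enzymes that those inhibitors block, gave 0 calls at 2 h and 1 at 4 h in the rga line among 19 tested. The shares of all probe sets called were 4.14% and 5.16%. AT3G10720 fell by 0.62 at 4 h, a call that depended on each of 4 of the 6 arrays. In the vector line 10 fell and 1 rose (57.9%), against 47.3% of all probe sets (29.6% lower and 17.7% higher). AT4G02330 (ATPMEPCRB) went from 4338 ± 1114 to 522 ± 122 there (log2 change -3.05 ± 0.31), and AT5G09760 from 615 ± 10.2 to 196 ± 8.93 (-1.65 ± 0.12). The rise of AT1G02810 by 1.91 ± 0.71 was lost without vector mock replicate 1 (adjusted p = 0.276), vector DEX replicate 1 (0.109) or vector DEX replicate 2 (0.115). The median of this list in the vector line was -0.80, -0.40 after quantile normalization and -0.52 after centring.

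Polygalacturonases and other proteins of the GH28 type, the list that AT3G48950 would belong to, had 19 tested genes. AT4G23820 rose in all 3 DEX comparisons, from 1692 ± 32.4 to 2352 ± 91.6 at 2 h and from 1528 ± 82.5 to 2295 ± 209 at 4 h in the rga line and from 1649 ± 134 to 3993 ± 427 in the vector line. It was the only one of the list called in the rga line at either time, where 4.14% and 5.16% of all probe sets were called. Of the 19, 5 rose and 7 fell in the vector line (63.2%), against 47.3% of all probe sets (17.7% higher and 29.6% lower). AT1G10640 fell the furthest of those named there, from 172 ± 16.5 to 13.7 ± 4.72 (log2 change -3.69 ± 0.31), and AT3G15720 fell by 2.40. AT1G19170 and AT4G33440 rose by 1.06 and 1.11. This list turned with the scaling, since 7 rose and 4 fell after centring each array on its median. No other gene of the list was above 2 log2 units with DEX in the vector line, where AT3G48950 was at 7.17.

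Pectate lyases, which cleave demethylesterified homogalacturonan by elimination, had 17 tested genes. AT1G67750 rose in all 3 comparisons, by 0.88 ± 0.18 and 1.17 ± 0.18 in the rga line at 2 h and 4 h and by 2.04 ± 0.22 in the vector line; the 2 h call was lost when only the 6 arrays compared were fitted (adjusted p = 0.0604). AT5G04310 rose at 4 h in the rga line from 18.7 ± 13.6, with 1 mock array at the floor, to 109 ± 20.8 (log2 change 2.78 ± 0.40, adjusted p = 0.000224), and in the vector line from 80.2 ± 30.6 to 369 ± 40.2. AT5G48900 fell by 0.46 at 4 h, a call that depended on each of 5 of the 6 arrays. In the vector line 5 lyases rose and 7 fell (70.6%), against 47.3% of all probe sets (17.7% higher and 29.6% lower). The falls included AT5G63180, from 1146 ± 92.7 to 132 ± 2.09, AT3G07010, which fell by 2.57, and AT3G53190, which fell by 1.70.

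Pectin acetylesterases, which remove acetyl groups from pectin, had 4 tested genes, and all 4 were called in the vector line, where 1 rose and 3 fell. Of all probe sets 47.3% were called there (17.7% higher and 29.6% lower). AT3G09405 rose there from 397 ± 24.4 to 2196 ± 495. AT1G57590 moved in opposite directions in the lines. It fell from 261 ± 19.0 to 37.8 ± 10.2 in the vector line (log2 change -2.81 ± 0.22, adjusted p = 1.23e-08), and it rose from 379 ± 52.9 to 610 ± 57.6 at 4 h in the rga line (0.69 ± 0.18, adjusted p = 0.0346), the latter a call that depended on each of 5 of the 6 arrays. Of 3 tested genes of pectin synthesis, AT5G15740 rose by 0.90 in the vector line and the others were not called in any DEX comparison. FER, a receptor kinase that binds pectin, was the only tested gene of the last list and was not called in any of them (log2 change 0.05, 0.09 and 0.16). After centring on array medians FER was called higher in the vector line, at 0.43, and 2 of the 3 synthesis genes were.

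**Figure D2:**
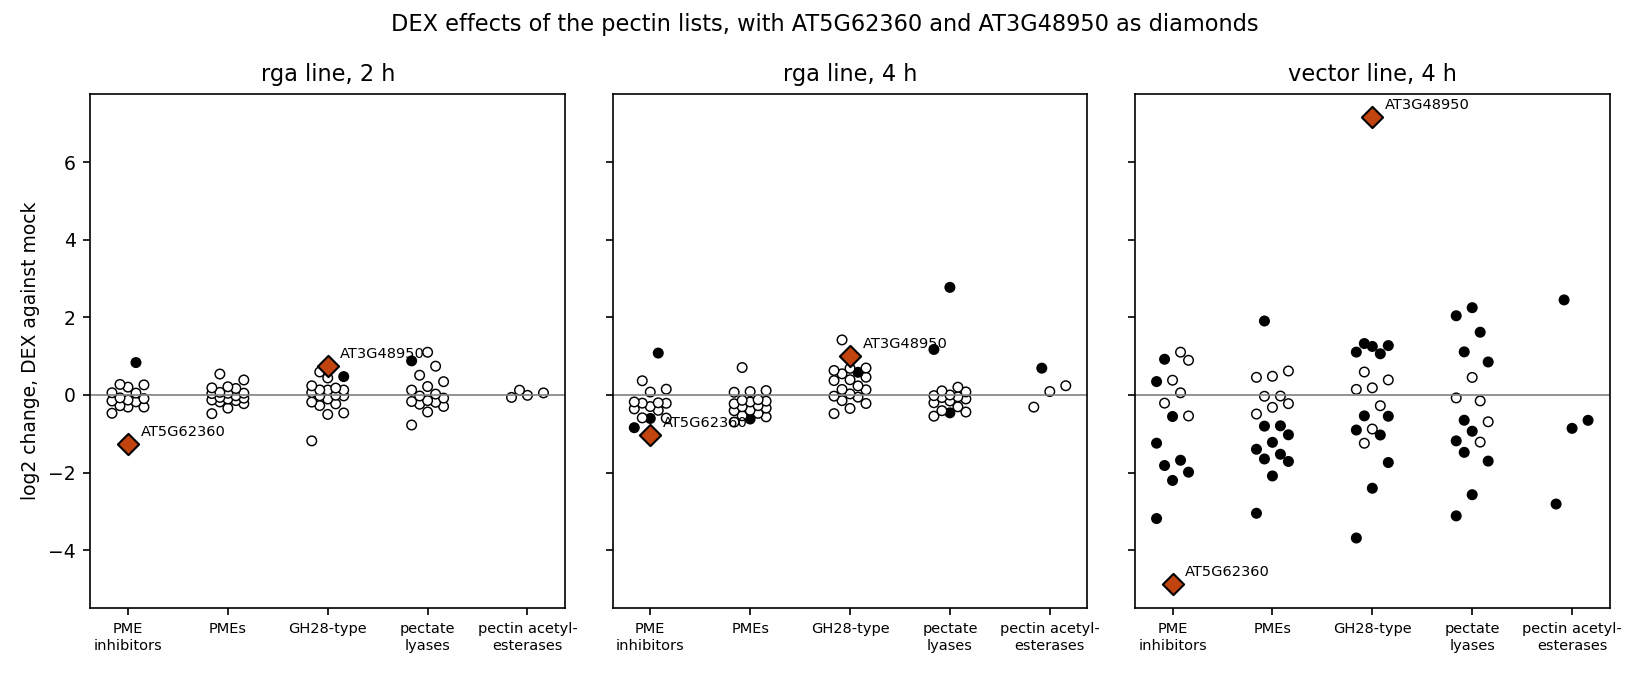
Log2 change with DEX against mock for the tested genes of 5 pectin lists for the rga line at 2 h and 4 h and for the vector line at 4 h; each circle is 1 gene, filled where the adjusted p was below 0.05, and diamonds are AT5G62360 and AT3G48950, for which no test is given. AT5G62360 at -4.88 and AT3G48950 at 7.17 lie outside the range of the other genes in the vector line.

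Calls shared by the 3 DEX comparisons were few among the other pectin genes, as they were over all probe sets. None of the 78 fell in all 3, against 60 of all 17059 probe sets (0.352%); 2 rose in all 3, AT4G23820 and AT1G67750, against 322 of all probe sets (1.89%). Of the 34 that fell in the vector line, 29 were not called in the rga line in either direction, a pattern of 4666 of all probe sets (27.4%). Of the 15 that rose in the vector line, 12 were not called in the rga line, as were 2357 of the 3016 probe sets that rose there. A missing call in the rga line does not show a difference between the lines. Whether the 4 h DEX effect differed between the lines was itself tested. It did in 35 of the 78 (44.9%), with the rga effect above the vector effect in 26 and below it in 9, against 30.5% of all probe sets (20.0% above and 10.5% below). The median difference of the 78 was 0.30 beside 0.14 for all probe sets. After quantile normalization the split was 20 and 8, and after centring on the array medians it was 21 and 14, with a median of 0.04. Of all probe sets called, 65.5% lay above with the authors' scaling, 60.9% with quantile normalization and 42.4% with median centring.

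**Figure D3:**
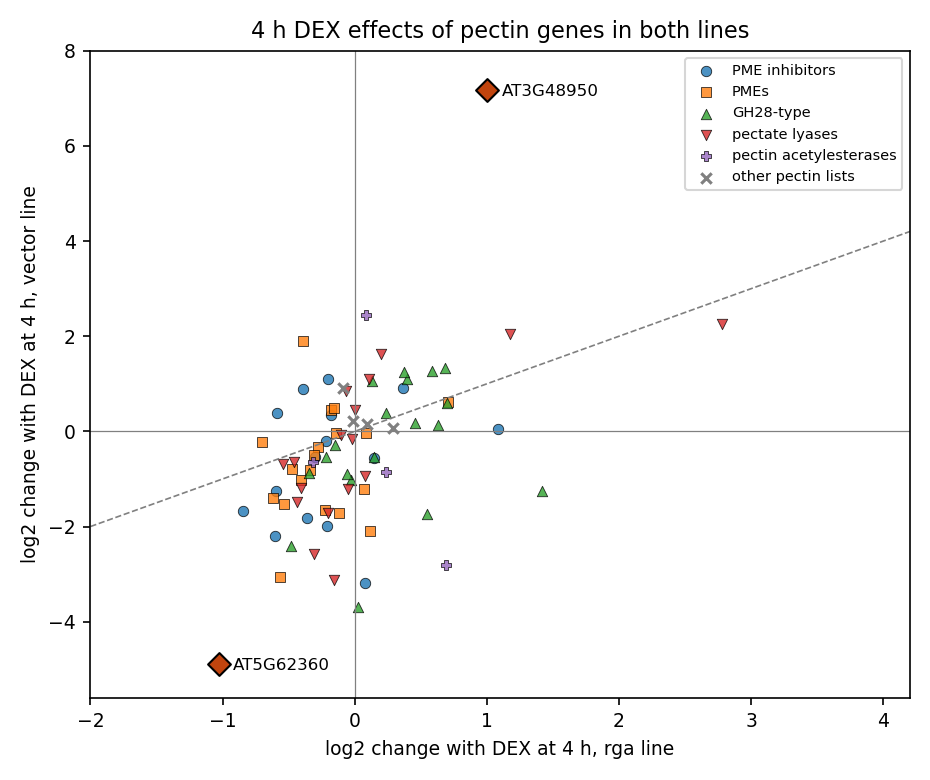
Log2 change with DEX at 4 h for the rga line (horizontal axis) and the vector line (vertical axis) for the 78 tested genes of the pectin lists, with diamonds for AT5G62360 and AT3G48950 and a dashed line of equal change. AT5G62360 lies at -1.03 and -4.88 and AT3G48950 at 1.003 and 7.17, both with the larger change in the vector line.

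Between the lines without DEX at 4 h, 12 of the 78 were higher in the rga line and 7 lower (24.4%), against 17.6% of all probe sets (11.5% higher and 6.03% lower). The share of all calls that were higher was 65.7% with the authors' scaling, 53.7% with quantile normalization and 35.4% with median centring. Both tested root markers were called higher in the rga line as well (2 of 2, median log2 difference 1.29), and 0 of the 2 leaf markers were called. The part of tissue content in these line differences was not tested. The pectate lyase gene AT5G04310 was at 18.7 ± 13.6 in rga shoots against 80.2 ± 30.6 in vector shoots (log2 difference -2.29 ± 0.45, adjusted p = 0.00283), a call lost without vector mock replicate 2 (adjusted p = 0.0582) or with only the arrays compared (0.0855). The pectin methylesterase gene AT2G47550 was at 167 ± 45.4 and 407 ± 109 (adjusted p = 0.00511), a call lost without vector mock replicate 1 (0.0816). AT1G23205, an inhibitor family gene, was higher in the rga line, at 507 ± 14.6 against 242 ± 12.3 (adjusted p = 0.000876). With vector mock replicate 2 left out 6 of the 78 were called, with vector mock replicate 1 left out 8, with rga 4 h mock replicate 1 left out 10 and with rga 4 h mock replicate 2 left out 12.

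Over time in the rga line, 2 of the 78 were higher at 4 h than at 2 h under mock treatment and 5 lower (8.97%). Of all probe sets 1.54% were called there (0.399% higher and 1.14% lower). With DEX, 3 were higher and 7 lower (12.8%), against 4.15% of all probe sets (1.95% higher and 2.20% lower). AT2G47550 fell both under mock treatment, from 405 ± 101 to 167 ± 45.4, and with DEX, from 386 ± 78.1 to 114 ± 21.4. Its mock call was lost without rga 2 h mock replicate 3 (limma adjusted p = 0.0745) or rga 4 h mock replicate 1 (0.0702). AT3G10720, another pectin methylesterase gene, went from 3730 ± 220 to 2239 ± 506 and from 3872 ± 743 to 1441 ± 188; its mock call depended on each of 3 of the 6 arrays. AT1G10640 went from 90.3 ± 13.1 to 198 ± 25.5 and from 90.2 ± 15.3 to 203 ± 40.3, but its mock call was lost on leaving out any of the 6 arrays (adjusted p from 0.0523 to 0.118) and its DEX call without rga 2 h DEX replicate 2 (0.0555) or rga 4 h DEX replicate 2 (0.0771). FER fell by 0.52 and by 0.47. As for the DEX effect at 4 h against that at 2 h, 0 of the 78 were called by limma, against 0.0469% of all probe sets. An unadjusted limma p under 0.05 was reached by 13 of the 78, against 945 of all 17059 probe sets (5.54%). The mock count of 7 became 1 without rga 2 h mock replicate 3, 2 without rga 4 h mock replicate 1, 3 without rga 2 h mock replicate 2, and 4 without rga 2 h mock replicate 1 or rga 4 h mock replicate 2. The DEX count of 10 became 5 without rga 4 h DEX replicate 2 and 6 without rga 4 h DEX replicate 3. The count at 4 h in the rga line with DEX against mock was 9 and became 5 without rga 4 h mock replicate 2, rga 4 h DEX replicate 1 or rga 4 h DEX replicate 2.

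Profiles like that of each gene were sought among 9486 tested probe sets with a single named gene, by Pearson correlation of log2 signal over the 16 arrays. For AT5G62360 the nearest were AT4G25620 (r = 0.986), AT1G29660, a GDSL-type lipase gene (0.986), AT5G02480 (0.985), AT3G06035 (0.983) and TBL45 (0.981), of the family that acetylates wall polysaccharides. A correlation above 0.9 was reached by 587 probe sets over the 16 arrays and by 3 without the 2 vector DEX arrays. Without those arrays the 5 correlations were 0.825 to 0.885, and over the 6 group means they were 0.991 to 0.997. AT1G29660 came closest in size as well, with log2 changes of -0.88, -1.18 and -4.69 in the 3 DEX comparisons.

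For AT3G48950 the nearest profiles were AT1G26330 (r = 0.962), AT5G42960 (0.960), AT3G02300 (0.957), AT1G04340 (0.956) and AT3G09280 (0.952), and 94 probe sets exceeded 0.9, against 0 without the vector DEX arrays. Without the vector DEX arrays these correlations were 0.748 to 0.811, and within the 12 rga arrays they were 0.614 to 0.743. Their changes with DEX in the vector line were 0.95 to 3.97, smaller than that of AT3G48950. These correlations are descriptions over arrays that share groups and scaling, and carry no p-value.

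**Figure D4:**
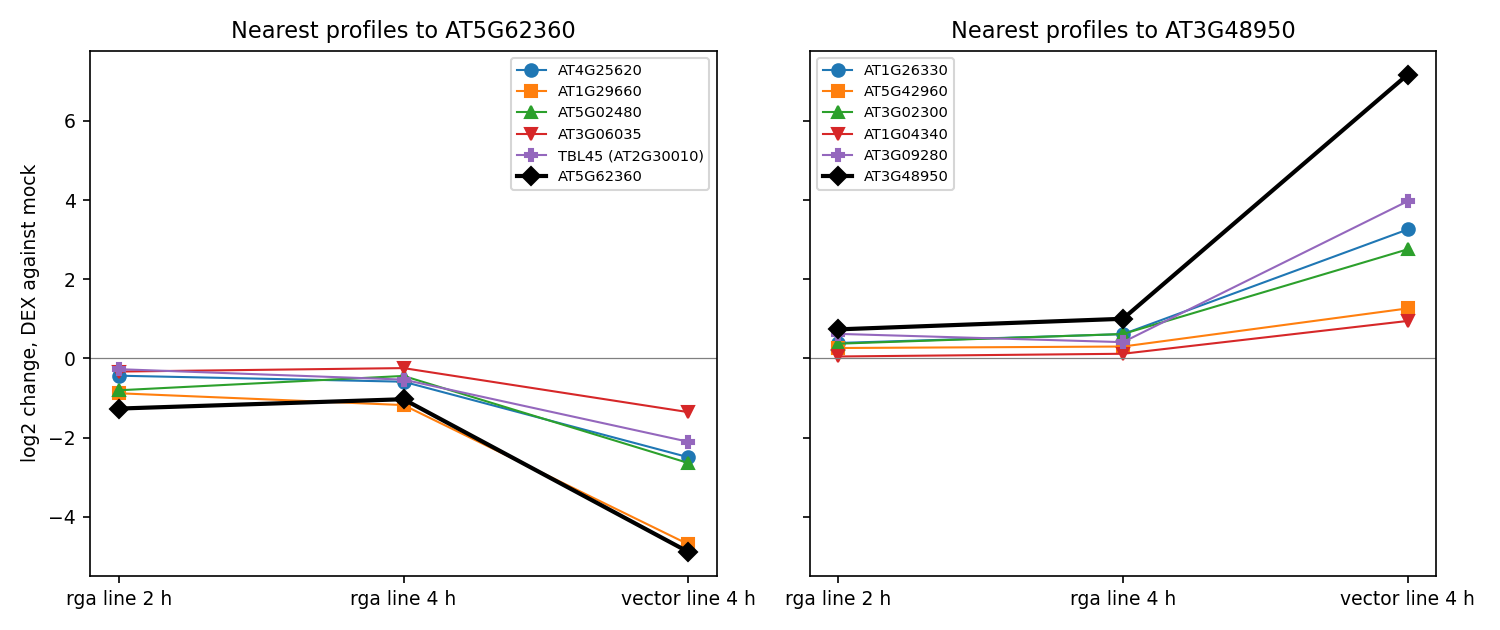
Log2 change with DEX against mock in the 3 comparisons for AT5G62360 (left) and AT3G48950 (right), drawn as black diamonds, and for the 5 genes nearest to each by correlation over 16 arrays; lines only join the values of 1 gene. AT1G29660 at -4.69 lies beside AT5G62360 at -4.88 in the vector line, while the genes nearest to AT3G48950 rose by 3.97 at most.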

How the data were processed

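The authors deposited an intensity for each probe set on a linear scale, computed with MAS5 according to the submitters' processing notes. No MAS5 version, scanner setting or detection call is given in the sources used here. On every one of the 16 arrays the mean after a 2% trim of both ends was 500.05 to 500.055; this scaling by the authors was left as it is. Medians of the arrays were 138 to 193, and the number of arrays limits the precision. The 64 control probe sets among 22810 were left out. Signals under the 10th percentile (7.95) were raised to it before log2, and the dimmest 25% by mean were dropped, which left 17059. Folds of low genes depend on that floor.

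Genes were named through the platform annotation, updated by gene ID to RefSeq: 13513 probe sets have 1 gene, 503 several and 8730 none. A gene with several probe sets was taken at the brightest. One limma model (limma 3.58.1, R 4.3.3) on 6 groups, leaving 10 degrees of freedom, with eBayes and trend, gave all changes, with Benjamini-Hochberg adjustment and a threshold of 0.05. The scripts were tested on simulated data. P-values measure the spread between the biological replicates the study names.

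The pair and the lists were chosen with earlier results of these data known. Named genes were the pair, the 5 nearest profiles of each, and, per list, up to 3 called genes a direction in each DEX comparison and line difference and up to 2 in the other comparisons; chromosomal neighbours were added. Alternatives were quantile normalization, median centring, leaving out the floor, adding 45.5 to every signal instead, other filters (none, or the lowest 50% left out), eBayes without trend, array weights, fewer arrays in the fit, a replicate block, genes added by name and each array left out.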

Additional observations from a re-analysis of the deposited data

Results flagged for a closer look

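The 4 h DEX effect differed between the rga line and the vector line, by limma's test of the difference with adjustment over all probe sets, in 22 pectin genes chosen by the naming rule. All values are log2 differences, the rga effect minus the vector effect, and all share the 2 vector DEX arrays that stood apart. Among the inhibitors of pectin methylesterase they were 1.60 for AT4G25260, 1.78 for AT1G62770, 0.84 for AT3G62820 and -0.53 for AT5G62350. Among the pectin methylesterases they were 1.42 for AT5G09760, 2.49 for AT4G02330 and 1.59 for AT3G43270. Among the GH28-type proteins AT1G10640 differed by 3.72, AT3G15720 by 1.92, AT3G06770 by 0.85, AT4G23820 by -0.69 and AT1G19170 by -0.93.

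Pectate lyases with a less negative effect in the rga line were AT5G63180 at 2.96, AT3G07010 at 2.27 and AT3G53190 at 1.505. Those with a higher effect in the vector line were AT3G09540 at -1.42, AT3G27400 at -1.01 and AT3G24670 at -0.92. The pectin acetylesterase genes AT1G57590 and AT3G05910 differed by 3.50 and 1.10, and AT3G09405 by -2.36; AT5G15740, of pectin synthesis, differed by -0.996. The call of AT3G27400 depended on each of 6 of the 10 arrays, and those of AT5G62350, AT1G19170 and AT3G24670 were each lost without either of 2 arrays. The call of AT3G62820 was lost after quantile normalization (0.47, adjusted p = 0.121).

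The 25S ribosomal RNA control probe set, which entered no comparison, had a mean signal of 12808 ± 396 (SD, n = 2) on the vector DEX arrays, against 474 ± 73.5 (n = 2) in the vector mock group and 391 to 2046 in the rga line. The control ratio of the 3′ to the 5′ part of the actin transcript was 12.8 and 14.2 on these arrays, 14.9 and 16.6 in the vector mock group and 7.98 to 11.4 in the rga line. The same ratio for GAPDH overlapped between them, at 0.795 and 0.876, 0.757 and 0.829, and 0.686 to 0.883.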

How the results depend on the processing

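Of 344 changes and counts recomputed with every array kept or the vector DEX group left out, 321 stayed within the replicate spread or within 1.5 times, and none of the changes of AT5G62360 or AT3G48950 with DEX turned its direction. With quantile normalization AT5G62360 changed by -4.15 in the vector line and its line difference was 3.08; with the offset these were -3.20 and 2.26. For AT3G48950 the vector change was 8.17 and the line difference -7.16 with no floor, and 5.10 and -4.70 with the offset, while its mock difference between the lines was 1.92 with no floor; it has no value where the lowest 50% were left out. The offset and the missing floor act on low signals by construction.

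Probe sets called between the lines under mock treatment numbered 2994, and 1906 after quantile normalization, 1888 with the lowest 50% left out; pectin genes there numbered 19, and 9 after quantile normalization, 11 with only the arrays compared. Between the times under mock treatment 263 became 174 with no filter, 98 without the trend and 117 with only the arrays compared, and 7 pectin genes became 2 with no filter and 3 without the trend, AT2G47550, AT3G10720 and AT1G23205 being among those lost in both and AT1G10640 with no filter. With DEX, 708 between the times became 419 without the trend. As for the DEX effect at 4 h against that at 2 h, 8 became 13 with the offset and 0 with limma on unfiltered probe sets or without the trend, where 1367 and 949 had an unadjusted p under 0.05. Pectin genes called at 4 h in the rga line fell from 9 to 5 with no filter, AT4G25260, AT3G10720, AT5G48900 and AT1G57590 being lost (adjusted p = 0.0861, 0.0867, 0.0580 and 0.0798). The same 4 were lost without the trend (0.0819, 0.0881, 0.0719 and 0.0680), and the first 3 of them with only the arrays compared (0.0538, 0.0559 and 0.0523). In the vector line AT5G62350 lost its call without the trend (0.0514) and AT1G02810 with the offset (0.0800) or no filter (0.0532). The cause was not tested. The share of calls that were higher in the vector line was 37.4%, 43.6% after quantile normalization and 58.1% after median centring; for the line difference it was 65.5%, 60.9% and 42.4%, and for the lines under mock treatment 65.7%, 53.7% and 35.4%. The median of all probe sets in the vector line was -0.15, -0.02 and 0.12.

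Leaving out 1 array at a time gave 134 to 248 probe sets and 1 to 8 pectin genes between the times under mock treatment, 360 to 592 and 5 to 9 with DEX, and 3 to 9 probe sets for the DEX effect at 4 h against that at 2 h. It gave 509 to 813 and 5 to 9 for DEX at 4 h in the rga line and 1016 to 3130 and 6 to 20 between the lines under mock treatment. The lowest counts of probe sets came without rga 2 h mock replicate 3 (134), rga 4 h DEX replicate 2 (360), rga 4 h DEX replicate 1 (509) and vector mock replicate 2 (1016).

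The deviations of same-numbered mock and DEX arrays correlated at r from -0.08 to 0.26, above 0.1 for rga 4 h replicates 1 and 3 alone, so the numbers were not taken as pairs, and 5 of 12 rga arrays were closest to one of their own number. With the replicate block, 688, 896 and 8107 probe sets were called in the 3 DEX comparisons, and the time difference of AT5G62360 under mock treatment stayed at -0.52. AT5G48900 lost its call at 4 h (adjusted p = 0.0537 by limma) and AT1G23205 its mock call between the times (0.0548). Between the lines under mock treatment AT1G02810, AT3G06770 and AT3G05910 lost theirs (0.0661, 0.0561 and 0.0662). Adding 8 loci by name added 0 tested genes.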
